A study of Mus musculus with 24 samples.

Results

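Long-term haematopoietic stem cells (LT-HSCs) that carry the myeloproliferative mutation Jak2V617F and came from mice given pegylated interferon alpha (pegIFN) were compared with wild-type LT-HSCs from mice given vehicle. The question was which genes of the treated mutant cells sit at the level of untreated normal stem cells and which do not. The comparison rests on 12 of 24 libraries, 6 of each group, each from a different mouse by the numbers in the library names, and on 15215 autosomal genes tested, of 38215 genes in the table. Sex-linked and mitochondrial genes were left out of the results.

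All mice were C57BL/6J Ptprc a/b recipients that received 11 Gy of irradiation and 2000000 bone marrow cells, mixed in equal parts from a Jak2V617F donor and a congenic wild-type donor. The treated mutant libraries came from Jak2V617F/+ Tg(E2A-cre) cells on C57Bl/6N (CD45.2+ CD45.1-) of mice given 600 ng pegIFN weekly, 5 doses in 4 weeks, with cells taken 48 hours after the last dose. The untreated normal libraries came from C57Bl/6N Ptprca cells (CD45.1+ CD45.2-) of mice given the vehicle, albumin in saline, on the same schedule. Both were sorted as lineage-negative Sca1+ cKit+ CD150+ CD48- bone marrow cells. The contrast therefore changes the genotype, the drug, the mouse and the congenic donor together, and these cannot be told apart within it. The sex of the donors, which the labels used here do not give, belongs to the same set, since sex-linked genes differed between the groups. The remaining groups, vehicle-treated Jak2V617F and pegIFN-treated wild-type cells (6 libraries each), entered the fit, and their values are given beside it for the main lists and some genes.

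LT-HSCs are the rare, mostly dormant cells that rebuild blood for life. JAK2 is the kinase that carries signals from receptors for erythropoietin, thrombopoietin and interferon gamma, and the V617F change makes it active without a cytokine. Type I interferon acts through its own receptor pair, IFNAR1 and IFNAR2, and the kinases JAK1 and TYK2, which activate STAT2 with IRF9, among others, to switch on many antiviral genes. Interferon is known to bring dormant stem cells into cycle, and pegIFN is used to treat myeloproliferative neoplasms.

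Levels are CPM, counts scaled to a common library size, and differences are log2 values, treated mutant minus untreated normal, with the standard error (SE) of the edgeR model. A gene was called higher or lower where the Benjamini-Hochberg adjusted p of the quasi-likelihood test was under 0.05. It was called at the normal level where an equivalence test (a pair of one-sided tests) placed the difference within 1.5-fold either way, a log2 band of 0.585, at an adjusted p under 0.05. A gene can pass both tests, when its difference is small but measured precisely. The width of the band is a choice, and its effect is given in the closing section.

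Libraries held 28.8 to 34.3 M counts in the treated mutant and 27.1 to 35.7 M in the untreated normal group. Xist, which the inactive X chromosome expresses, was at 1937 to 3310 CPM in 5 untreated normal libraries and at 40.8 to 110.1 in 5 treated mutant ones. The summed level of Uty, Kdm5d, Eif2s3y and Ddx3y, which lie on the Y chromosome, was 20.2 to 75.7 CPM in the same 5 untreated normal libraries and 149.3 to 216.2 in all treated mutant ones. A library of each group stood apart: untreated normal replicate 4 had 599.8 CPM of Xist and 249.6 of the Y-linked genes, and treated mutant replicate 1 had 653.9 and 149.3. Whether these or other libraries hold cells of the other donor, so that untreated normal libraries include mutant cells or the reverse, was not tested. Without this pair of libraries 4466 genes were higher, 4279 lower and 6529 at the normal level. Treated mutant replicate 3 stood apart on the first principal component of log2 CPM (43.9% of variance), at -18.2 where the other 5 were between -56.9 and -45.5 and the untreated normal libraries between 33.0 and 67.2. Without it 4983 genes were higher, 4749 lower and 5901 at the normal level.

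Of the 15215 autosomal genes, 4841 (31.8%) were higher and 4702 (30.9%) lower in treated mutant cells, 62.7% together. At the normal level were 6332 genes (41.6%): 3158 that passed only this test, 2012 that were also called higher and 1162 that were also called lower. For 2514 genes (16.5%) neither test decided. Differences shown to exceed 1.5-fold were fewer, 745 higher (4.9%) and 1563 lower (10.3%). The median difference over all autosomal genes was -0.01, so a list is read below against a centre close to 0 and against these shares. Both the centre and the shares varied with the level of the genes, as given below.

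**Figure D1:**
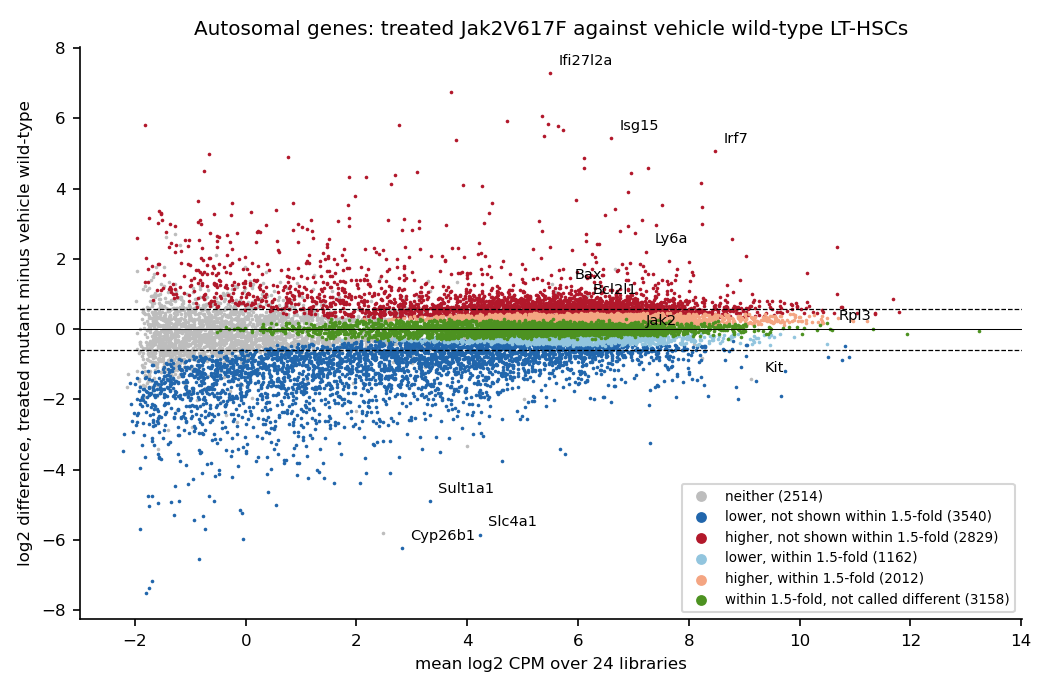
Each point is an autosomal gene, with its mean log2 CPM over 24 libraries on the x axis and its log2 difference, treated mutant minus vehicle wild-type, on the y axis, coloured by class. Dashed lines mark 1.5-fold. The 3158 genes within the band and not called different lie along 0, Isg15, Irf7 and Ifi27l2a stand above 5, and Cyp26b1 and Slc4a1 stand below -5.

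How a gene was classed depended on its level. Of 4 equal groups by mean level, the lowest (log2 CPM up to 1.56) had 3.57% of genes at the normal level and 54.1% undecided, with a median SE of 0.364. In the highest (log2 CPM of 6.08 and above) 65.4% were at the normal level and 0.715% undecided, with a median SE of 0.068. The median difference was -0.36 in the lowest group and 0.16 in the highest. Called higher were 9.83% of the lowest and 50.8% of the highest, and called lower 32.5% and 23.5%. Lower calls beyond 1.5-fold were concentrated among weakly expressed genes, 17.0% of the lowest group against 3.07% of the highest, while higher calls beyond 1.5-fold made up 3.39% and 6.20%. Of 633 long intergenic noncoding RNAs, 39.2% were lower and 6.64% higher, and of 831 pseudogenes 7.46% were lower and 36.8% higher.

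The cells were checked against the RNA of the sorting antigens. Slamf1, which encodes CD150, was at the normal level, 34.6 to 45.7 CPM (median 40.3) in untreated normal and 29.9 to 46 CPM (median 36.3) in treated mutant libraries (log2 difference -0.12 ± 0.11, equivalence adjusted p = 0.000746). Kit, the stem cell factor receptor, was lower, 727 to 1190 CPM (median 924) against 275 to 462 CPM (median 319) (-1.47 ± 0.13, adjusted p = 5.79e-09). Ly6a, which encodes Sca1 and is itself induced by interferon, was higher, 37.4 to 68.5 CPM (median 57.6) against 151 to 357 CPM (median 258) (2.21 ± 0.19, adjusted p = 4.93e-09). Cd48, whose product the gate excludes, was also higher, 4.73 to 12.8 CPM (median 7.3) against 24.2 to 41 CPM (median 33.4) (2.08 ± 0.18, adjusted p = 3.96e-09). For Kit, Ly6a and Cd48 the groups did not overlap. Cd34 and Flt3, which like Cd48 are low in LT-HSCs, were lower in the treated mutant, also without overlap. Cd34 ran at 160 to 272 CPM (median 196) in untreated normal and 63.3 to 145 (median 95.4) in treated mutant libraries. Flt3 ran at 14.8 to 52.6 CPM (median 28.6) and 4.98 to 14.5 (median 7.88). The stem cell markers Procr, Fgd5, Hlf and Mecom were detected in all 12 libraries but lower in the treated mutant. Procr ran at 35.9 to 59.8 CPM (median 37.8) in untreated normal and 6.3 to 29.1 (median 9.91) in treated mutant cells, Fgd5 at 29.1 to 52.9 (median 36.8) and 2.71 to 11 (median 3.58), and Mecom at 79.4 to 125 (median 122) and 34.9 to 77.8 (median 39.6), without overlap. Of the antigens used to deplete mature cells, Cd3e and Cd5 were at most 0.335 CPM and Ly6g at most 1.29 CPM, while Itgam, which encodes CD11b, was at 9.3 to 24 CPM in untreated normal and 7.62 to 20.8 in treated mutant libraries. In bulk RNA, fewer cells of a type and less RNA per cell cannot be told apart.

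Of all lists, interferon-stimulated genes had the median furthest from 0. Of 62 antiviral genes tested, 61 were higher, 56 of them beyond 1.5-fold, 1 was lower, and the median difference was 2.01. In 60 of 62 the libraries of the 2 groups did not overlap. The share of all autosomal genes without overlap was not counted. Such counts, here and below, therefore describe a list and cannot be called unusual. Isg15 (ENSMUSG00000035692, chromosome 4, 156199424 to 156200818, GRCm38), a ubiquitin-like antiviral modifier, ran at 3.39 to 5.63 CPM (median 4.26) in untreated normal and 158 to 212 CPM (median 194) in treated mutant cells (5.43 ± 0.10, adjusted p = 3.35e-22). Irf7, a factor that reinforces the antiviral programme, ran at 12 to 26.2 CPM (median 18.6) and 556 to 690.0 CPM (median 633) (5.07 ± 0.14, adjusted p = 1.36e-17). Oas1a, a sensor of double-stranded RNA, ran at 27.6 to 30.4 CPM (median 29.3) and 235 to 263 CPM (median 256) (3.10 ± 0.06). No treated library of these genes was near the range of the untreated normal ones.

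The promoters of 5 genes that were higher beyond the band and of Uba7, which was within it, are shown for the letters that the interferon-activated factor binds. The window runs from 250 bases before to 50 after the RefSeq start site (GRCm38.p6), 5′ to 3′ on the gene's strand. Capitals mark, on either strand, a pair of GAAA blocks with any 2 bases between them, the core of the interferon-stimulated response element, or TTC and GAA with any 3 bases between them, the core of a STAT site. Overlapping matches run together.
Isg15 (chr4:156200769-156201068, minus strand): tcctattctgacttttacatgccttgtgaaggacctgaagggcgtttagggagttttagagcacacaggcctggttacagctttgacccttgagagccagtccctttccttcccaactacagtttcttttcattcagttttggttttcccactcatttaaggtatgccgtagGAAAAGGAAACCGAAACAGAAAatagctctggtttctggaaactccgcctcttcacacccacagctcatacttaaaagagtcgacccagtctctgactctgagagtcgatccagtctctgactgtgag
Oas1a (chr5:120907476-120907775, minus strand): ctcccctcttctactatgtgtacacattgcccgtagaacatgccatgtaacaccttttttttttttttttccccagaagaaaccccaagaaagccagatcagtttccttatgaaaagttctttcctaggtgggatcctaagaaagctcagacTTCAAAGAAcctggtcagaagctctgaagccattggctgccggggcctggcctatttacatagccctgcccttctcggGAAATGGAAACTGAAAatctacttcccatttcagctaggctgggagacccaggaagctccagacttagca
Ifit3 (chr19:34583279-34583578, plus strand): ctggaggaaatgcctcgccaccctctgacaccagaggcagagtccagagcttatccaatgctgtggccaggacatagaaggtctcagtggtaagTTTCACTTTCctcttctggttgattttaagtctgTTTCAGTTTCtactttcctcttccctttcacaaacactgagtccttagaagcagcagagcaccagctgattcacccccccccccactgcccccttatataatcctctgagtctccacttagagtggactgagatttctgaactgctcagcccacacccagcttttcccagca
Stat2 (chr10:128270248-128270547, plus strand): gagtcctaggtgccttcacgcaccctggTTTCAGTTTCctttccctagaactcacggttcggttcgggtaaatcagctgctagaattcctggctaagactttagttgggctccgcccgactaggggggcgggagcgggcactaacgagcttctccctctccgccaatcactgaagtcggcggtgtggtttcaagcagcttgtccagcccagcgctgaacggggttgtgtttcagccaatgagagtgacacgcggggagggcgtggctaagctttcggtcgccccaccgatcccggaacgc
Irf7 (chr7:141266375-141266674, minus strand): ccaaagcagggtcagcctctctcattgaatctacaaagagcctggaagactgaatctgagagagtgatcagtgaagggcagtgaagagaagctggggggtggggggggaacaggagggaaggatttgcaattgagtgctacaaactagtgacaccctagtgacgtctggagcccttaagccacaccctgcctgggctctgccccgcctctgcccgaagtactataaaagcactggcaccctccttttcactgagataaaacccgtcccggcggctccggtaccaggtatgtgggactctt
Uba7 (chr9:107975317-107975616, plus strand): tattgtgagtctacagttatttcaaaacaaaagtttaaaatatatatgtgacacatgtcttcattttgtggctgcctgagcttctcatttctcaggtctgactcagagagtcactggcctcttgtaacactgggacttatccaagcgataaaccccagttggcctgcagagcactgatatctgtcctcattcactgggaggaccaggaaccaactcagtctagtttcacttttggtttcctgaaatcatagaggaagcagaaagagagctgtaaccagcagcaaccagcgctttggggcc

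Isg15 held 3 overlapping matches to the response element that begin 66 to 78 bases before the start site. Oas1a held 2, at 14 to 20 bases before it, and 1 match to the STAT core. Ifit3 held 2, between 122 and 156 bases before the start, Stat2 held 1 at 222, and neither Irf7 nor Uba7 held a match to either core in this window. Of 10509 autosomal genes tested that matched a window by symbol or ID, 3.93% held the response element core. The share was 42.9% of the 49 antiviral genes that matched, 12.6% of 539 genes higher beyond 1.5-fold, 3.35% of 1105 genes lower beyond 1.5-fold and 2.86% of 2339 genes within the band and not called different. For the STAT core the shares were 8.41% of all, 20.4% of the antiviral genes (10 of 49), 54 of the 539 higher genes, 9.05% of the lower and 8.34% of the normal-level genes. Over all 32851 windows the letters were found in 3.44% and 8.30%. A match describes letters and not a bound site.

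The largest differences were reached by genes almost silent in untreated cells. Ifi27l2a, an interferon-induced membrane protein gene, ran at 0.384 to 0.962 CPM (median 0.632) in untreated normal and 87.1 to 121 CPM (median 100.4) in treated mutant cells (7.29 ± 0.16, adjusted p = 3.35e-22). Mx1, an antiviral GTPase, ran at 0.876 to 2.4 CPM (median 1.97) and 79.3 to 128 CPM (median 96.4) (5.77 ± 0.25). Ifit3, which binds viral RNA together with its relatives, ran at 1.46 to 3.07 CPM (median 1.75) and 75.4 to 169 CPM (median 92.5) (5.66 ± 0.30). Apol9b, Pydc4 and Pydc3 were higher by 5.85, 6.06 and 5.81, the last from at most 0.320 CPM in untreated normal cells. Slfn4, a schlafen family gene, ranged widely among the treated libraries, 44.9 to 308 CPM (median 99.2) against 0.283 to 8.61 CPM (median 2.15) in untreated normal cells (5.50 ± 0.70). Members of these families share sequence, and reads that fit several of them were divided by the estimation of counts.

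Only 2 of the 62 antiviral genes were within 1.5-fold of normal, and both were also called higher. Sp110, a nuclear body protein, ran at 152 to 169.7 CPM (median 158) and 189 to 223 CPM (median 202) (0.36 ± 0.05, equivalence adjusted p = 8.58e-05), without overlap of the groups. Uba7, the enzyme that activates ISG15 for conjugation, ran at 485 to 791 CPM (median 606) and 682 to 842 CPM (median 795) (0.35 ± 0.09, equivalence adjusted p = 0.0153), with overlap. The equivalence call of Uba7 was lost without untreated normal replicate 5, or without the pair of libraries apart on sex-linked genes. Ifitm1, named after its values were seen, was the 1 antiviral gene called lower, with a difference of -0.74.

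The signalling pathway that carries interferon had shares near those of all autosomal genes. Of 25 receptor, JAK-STAT and IRF genes, 9 were higher (36%, against 31.8% of all), 8 lower (32% against 30.9%) and 10 at the normal level (40% against 41.6%), 7 of these not called different, with a median of -0.09 that became 0.06 without treated mutant replicate 5 and 0.09 without untreated normal replicate 5. Ifnar1, the low-affinity receptor chain, was lower in every treated library, 70.1 to 89.5 CPM (median 81.5) against 51.5 to 59.8 CPM (median 56.1) (-0.54 ± 0.06, adjusted p = 5.16e-08), and so was the kinase Jak1, 324 to 357 CPM (median 341) against 219.7 to 278 CPM (median 238) (-0.51 ± 0.05, adjusted p = 3.81e-09). The partner chain Ifnar2 was at the normal level, 53.6 to 71.5 CPM (median 68.3) against 57.4 to 67.1 CPM (median 61.9) (-0.09 ± 0.06, equivalence adjusted p = 1.10e-07), as was the phosphatase Ptpn1 (0.10 ± 0.05).

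Downstream, Stat2 was higher, 43.1 to 68.5 CPM (median 56.8) against 136 to 209 CPM (median 171) (1.60 ± 0.11, adjusted p = 9.09e-11). Nmi, which binds STAT proteins, differed by 0.83 ± 0.08. Jak2 itself (ENSMUSG00000024789, chromosome 19, 29251828 to 29313080) was at the normal level, 119 to 159 CPM (median 136) in untreated normal and 112 to 138 CPM (median 128) in treated mutant cells (-0.13 ± 0.07, adjusted p = 0.0998, equivalence adjusted p = 2.12e-06). A gene total cannot show which allele was read, so this level is no check of the genotype.

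**Figure D2:**
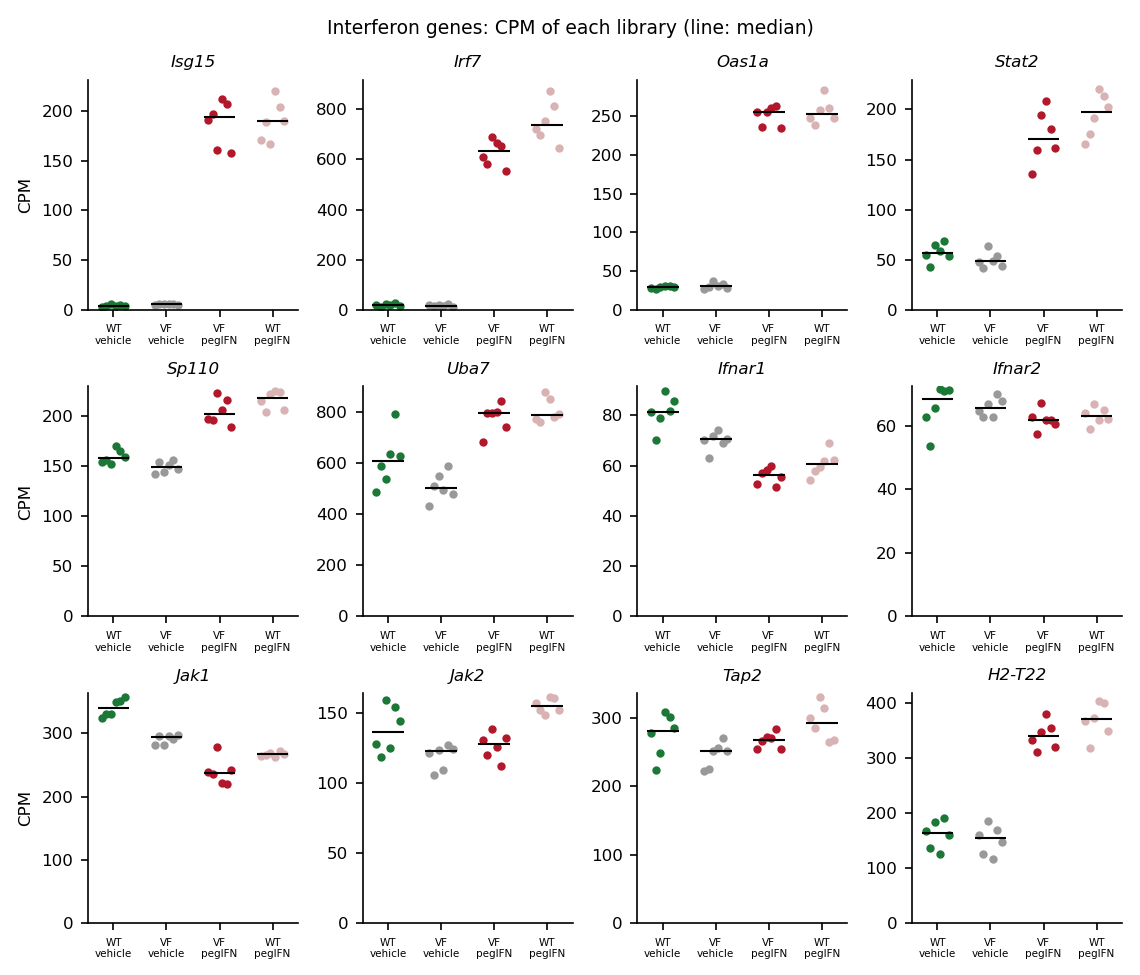
CPM of each library (points) and group medians (lines) for 12 interferon genes in the 4 groups, on linear axes from 0. VF is Jak2V617F and WT wild-type. In Isg15, Irf7, Oas1a and Stat2 every treated mutant library lies above every vehicle wild-type library. In Ifnar1 and Jak1 it lies below, and in Ifnar2, Jak2 and Tap2 the groups overlap.

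Interferon-inducible GTPases, which coat and disrupt the vacuoles of pathogens, were split, with 9 of 16 higher, 2 lower and 5 undecided (median 0.70). Without treated mutant replicate 3, 4 were lower. Without untreated normal replicate 5, 1 was lower. Irgm1 ran at 76.7 to 158 CPM (median 98.7) in untreated normal and 299 to 344 CPM (median 312) in treated mutant cells (1.53 ± 0.15, adjusted p = 2.75e-08), and Gbp3, Gbp7 and Ifi47 differed by 1.06, 0.84 and 0.80. The 2 called lower, Gbp4 (-1.56 ± 0.40) and Gbp8 (-0.92 ± 0.31), were named after their values were seen. Guanylate-binding protein genes are close relatives that share reads.

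MHC class I presentation genes were mostly higher, 20 of 24, with 2 lower and a median of 0.57. The non-classical class I gene H2-T24 ran at 17 to 34.6 CPM (median 24.4) against 75 to 95 CPM (median 77.9) (1.64 ± 0.14, adjusted p = 1.28e-09), and H2-T22 at 126 to 191 CPM (median 164) against 311 to 381 CPM (median 340.5) (1.09 ± 0.10). The proteasome activator Psme2 and the immunoproteasome subunit Psmb8 differed by 0.91 and 0.66. At the normal level were 5 members, among them the peptide transporter subunit Tap2, 224 to 309 CPM (median 281) against 254 to 283 CPM (median 268) (-0.04 ± 0.07, equivalence adjusted p = 3.43e-07), and H2-Q4 (0.09 ± 0.10). That count was 8 without untreated normal replicate 2 or replicate 4, and 10 with upper-quartile factors. Class I genes are near-identical copies, so the split of reads among them is uncertain.

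The study's title names interferon-induced apoptosis and Bcl-xL, the survival protein encoded by Bcl2l1. Bcl2l1 (ENSMUSG00000007659, chromosome 2, 152780668 to 152831728) was higher in every treated mutant library, 39.8 to 65.7 CPM (median 52.8) in untreated normal and 77.1 to 95 CPM (median 90.3) in treated mutant cells (0.76 ± 0.11, adjusted p = 3.18e-06). The 95% interval of the difference was 0.53 to 0.99, and the test against more than 1.5-fold did not call it. Of the other survival genes, Mcl1 was lower without overlap, 326 to 458 CPM (median 390.2) against 233 to 281 CPM (median 253) (-0.61 ± 0.10, adjusted p = 1.14e-05). Bcl2l2 was lower but within the band, 34.9 to 42.9 CPM (median 37.7) against 26.2 to 33.1 CPM (median 31) (-0.32 ± 0.06, equivalence adjusted p = 0.000375). Bcl2 was at the normal level, 117 to 139 CPM (median 128) against 105 to 135 CPM (median 116) (-0.13 ± 0.08, adjusted p = 0.141, equivalence adjusted p = 1.32e-05). The 4 main survival genes thus fell into 4 classes.

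Both pore-forming genes were higher. Bax ran at 30.2 to 38.1 CPM (median 35.4) in untreated normal and 63.3 to 91.7 CPM (median 78.7) in treated mutant cells (1.19 ± 0.07, adjusted p = 2.06e-12), beyond 1.5-fold, and Bak1 at 70.3 to 89.3 CPM (median 84.5) and 119.9 to 139 CPM (median 129.8) (0.65 ± 0.06, adjusted p = 2.56e-09). Neither overlapped between the groups. Of 10 pro-apoptotic BCL2 family genes tested, 6 were higher and 2 lower, with a median of 0.37.

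Among the BH3-only genes, which trigger BAX and BAK or block survival proteins, directions were mixed. Bmf was lower, 1.73 to 6.27 CPM (median 3.56) against 0.217 to 1.58 CPM (median 0.778) (-2.14 ± 0.34, adjusted p = 8.95e-06), and Bcl2l11, which encodes BIM, was lower by a smaller amount, 17.5 to 24.1 CPM (median 19.7) against 14.1 to 15.7 CPM (median 15) (-0.41 ± 0.09, adjusted p = 0.000302). Bad and Bid were higher within the band (0.36 ± 0.07 and 0.32 ± 0.08). The p53 targets Pmaip1 (NOXA) and Bbc3 (PUMA) were called higher, at 0.92 ± 0.31 and 0.39 ± 0.17 (adjusted p = 0.0132 and 0.0479), and both overlapped between the groups. The call of Bbc3 was lost in 12 of 23 alternatives, with differences from 0.29 to 0.53.

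**Figure D3:**
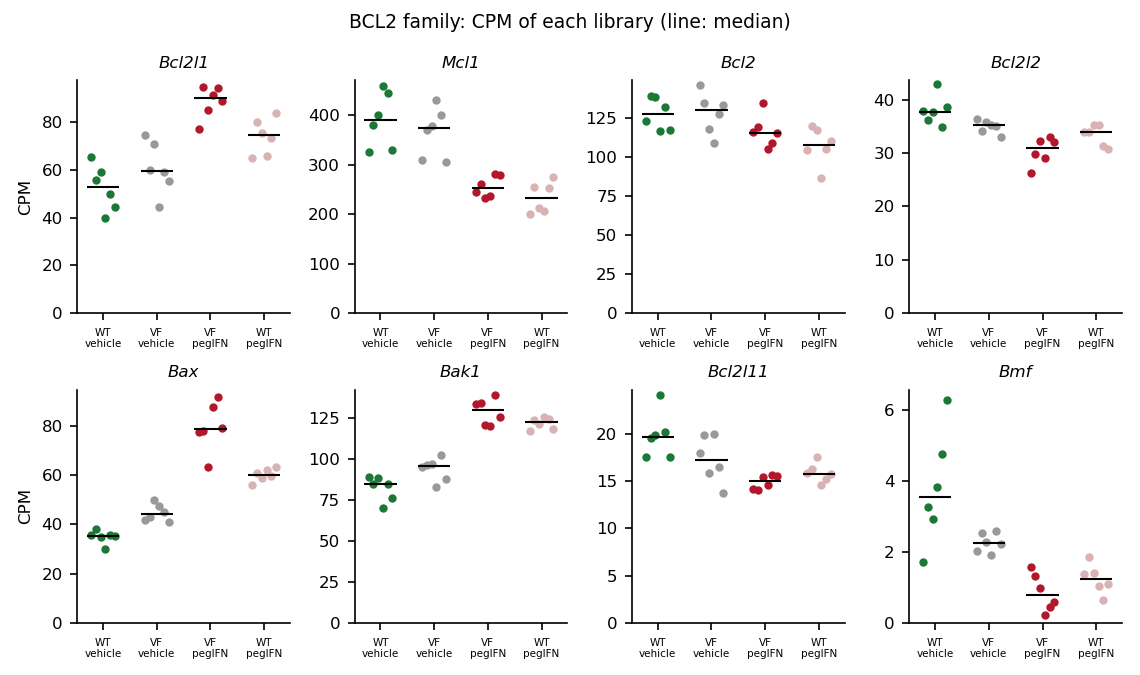
CPM of each library (points) and group medians (lines) for 8 BCL2 family genes in the 4 groups, on linear axes from 0. VF is Jak2V617F and WT wild-type. Treated mutant libraries lie above vehicle wild-type libraries for Bcl2l1, Bax and Bak1, below them for Mcl1, Bcl2l2, Bcl2l11 and Bmf, and among them for Bcl2.

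Of 27 death receptor and caspase genes, 17 were at the normal level (63%, beside 41.6% of all genes and 65.4% of the highest group by level), 9 were higher and 7 lower, with a median of 0.09 that changed sign with upper-quartile factors. The furthest was Daxx, an adaptor of nuclear bodies that interferon induces, 37.9 to 44.6 CPM (median 42.5) against 113 to 136 CPM (median 119) (1.55 ± 0.07, adjusted p = 1.87e-14). Cycs, the cytochrome c gene, ran at 44.4 to 74 CPM (median 52.5) against 106 to 132 CPM (median 125) (1.14 ± 0.11). The initiator caspase Casp8 was higher by 0.56 and its inhibitor Cflar lower, with a difference of -0.55 and no overlap for either. Ripk1 and Gsdmd, of the necroptosis and pyroptosis routes, were at the normal level (-0.04 ± 0.06 and -0.06 ± 0.06).

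Targets of p53 stood on both sides, 13 of 24 higher (54.2%, against 31.8% of all) and 7 lower (29.2% against 30.9%). Their median was 0.36. Without the pair of libraries apart on sex-linked genes 4 were lower. Cdkn1a, which encodes the cell cycle inhibitor p21, ran at 5.09 to 17.4 CPM (median 10.9) in untreated normal and 17.9 to 50.6 CPM (median 28.4) in treated mutant cells (1.46 ± 0.32, adjusted p = 0.000442). The groups did not overlap, though the lowest treated library was only just above the highest normal one. Phlda3, a repressor of AKT, was at 1.41 to 2.43 CPM (median 2.25) against 8.66 to 22 CPM (median 14.7) (2.84 ± 0.30), and Aen, an apoptosis-associated nuclease, at 63.4 to 72.8 CPM (median 68) against 111 to 154 CPM (median 141) (1.00 ± 0.07). Sesn1 was lower (-0.71 ± 0.07), Mdm2 was at the normal level (-0.03 ± 0.07, equivalence adjusted p = 5.58e-07) and Trp53 itself was higher within the band (0.33 ± 0.06).

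The programme of stem cell identity lay below normal. Of 39 genes, 27 were lower, 17 of them beyond 1.5-fold, 3 were higher and 10 were at the normal level, with a median of -0.74. In 21 of 39 every treated library was below every normal one. Sult1a1, a sulfotransferase gene of stem cell signatures, was close to 0 in the treated libraries, 16.9 to 38.4 CPM (median 23.8) against 0.428 to 1.4 CPM (median 0.796) (-4.90 ± 0.30, adjusted p = 2.04e-11). Hoxa5, a homeobox factor, ran at 17.1 to 31.2 CPM (median 23.9) against 5.45 to 10.3 CPM (median 7.14) (-1.71 ± 0.15). By contrast the blood transcription factor Tal1 was at the normal level, 254 to 306 CPM (median 274) against 263 to 305 CPM (median 286) (0.03 ± 0.05, equivalence adjusted p = 6.80e-09), and its partner Lmo2 was lower within the band (-0.17 ± 0.05).

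Genes that hold stem cells in quiescence were lower almost throughout, 22 of 25, with 1 higher and a median of -1.13. Foxo1 ran at 29.5 to 37.9 CPM (median 35.8) in untreated normal and 14.8 to 22.2 CPM (median 17.9) in treated mutant cells (-0.94 ± 0.08, adjusted p = 6.52e-10), and Txnip, which restrains glucose uptake and binds thioredoxin, at 494 to 1149 CPM (median 782) against 199.8 to 335 CPM (median 235) (-1.66 ± 0.17). Smad3, a mediator of TGF-beta signals, was lower by a smaller amount (-0.67 ± 0.07). The 1 higher gene was Rb1, the retinoblastoma gene, within the band (0.30 ± 0.07), and Tsc1 was lower within the band (-0.20 ± 0.09), a call that was lost in 13 of 23 alternatives. For Rbl2, a relative of Rb1 with a difference of -0.48 ± 0.05, the equivalence call was lost in 14 of 23.

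Receptors that anchor stem cells in their niche were also lower in 9 of 18, with 3 higher and a median of -0.27. At the normal level were 7 (38.9%, beside 41.6% of all genes). S1pr1, the receptor that guides egress to blood, ran at 20.5 to 30.2 CPM (median 25.9) against 8.66 to 11.4 CPM (median 10) (-1.37 ± 0.11, adjusted p = 3.03e-10). Robo4, a guidance receptor, ran at 24.8 to 46.7 CPM (median 40.1) against 2.27 to 12.1 CPM (median 3.76) (-2.94 ± 0.31), and Cd93 and Esam were lower by more than 1.5-fold (-1.01 ± 0.11 and -1.26 ± 0.16). Itgb1, the common beta-1 integrin chain, was at the normal level (-0.01 ± 0.07, equivalence adjusted p = 1.39e-07). Cd44, the hyaluronan receptor, was higher within the band (0.19 ± 0.05).

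The largest decreases over all genes with a mean log2 CPM of at least 1 took several to near 0. Cyp26b1, which degrades retinoic acid, ran at 6.36 to 53.8 CPM (median 15.9) in untreated normal and 0.0723 to 0.61 CPM (median 0.226) in treated mutant cells (-6.24 ± 0.65, adjusted p = 4.90e-08). Pgr, the progesterone receptor gene, ran at 5.57 to 10.7 CPM (median 7.71) against 0.0341 to 0.687 CPM (median 0.4) (-4.37 ± 0.42), and Wwtr1, which encodes the coactivator TAZ, at 3.79 to 8.89 CPM (median 5.72) against 0.108 to 0.549 CPM (median 0.272) (-4.23 ± 0.52). Slc26a11, an anion transporter gene, was at 7.74 to 20.8 CPM (median 12.2) against 0.396 to 1.62 CPM (median 0.576) (-4.11 ± 0.32), and Matn4, a matrix protein gene, at 0.321 to 11.2 CPM (median 3.07) against 0 to 1.05 CPM (median 0.107) (-4.23 ± 1.02). Matn4 overlapped between the groups while the others named here did not, and fitted differences of genes near 0 depend on the counts assumed behind a 0.

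Replication genes were higher in 31 of 33, with a median of 0.50, and in 27 the groups did not overlap. Dut, which keeps uracil out of DNA, ran at 85.6 to 146 CPM (median 123) against 182 to 256 CPM (median 220.1) (0.91 ± 0.11, adjusted p = 1.25e-07), and Ccne1, the cyclin of S-phase entry, at 10.8 to 18.5 CPM (median 14.4) against 21.2 to 38.6 CPM (median 35.2) (1.22 ± 0.15). Mcm10 and Gins1, of the replication fork, differed by 0.93 and 0.84. E2f2 was at the normal level (0.13 ± 0.10) and Rfc2 higher within the band (0.31 ± 0.06). The number at the normal level, 5 of 33, was 14 without untreated normal replicate 4, 13 without the pair of libraries apart on sex-linked genes, 3 without untreated normal replicate 1 or 2, and 15 with upper-quartile factors.

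Mitotic genes were higher in 26 of 30, with a median of 0.61, and in 12 of 30 the groups did not overlap. Ube2c, which drives the degradation of cyclins, ran at 29 to 55.5 CPM (median 39.7) in untreated normal and 75.2 to 99.1 CPM (median 90.2) in treated mutant cells (1.06 ± 0.12, adjusted p = 1.07e-07). Cdk1 ran at 43.9 to 84.9 CPM (median 67.5) against 114 to 135 CPM (median 126) (0.90 ± 0.12), and Ccnb1 and Cenpa differed by 0.88 and 0.82. In untreated mutant cells these 4 genes stood at 0.95, 0.69, 0.86 and 0.72 from the same normal libraries, and the list median there was 0.58. Mki67, the proliferation antigen, was higher within the band, 538 to 908 CPM (median 669.6) against 709 to 933 CPM (median 841) (0.25 ± 0.10, adjusted p = 0.0375), and lost its call in 10 of 23 alternatives. At the normal level were 6 of 30, or 3 without untreated normal replicate 1.

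DNA damage and repair genes were often called, 21 of 30 higher and 2 lower. Their median was 0.28, beside 0.16 in the highest group by level. At the normal level were 18 (60%, beside 41.6% of all genes and 65.4% of that highest group). Blm, a helicase of recombination, ran at 44.4 to 75.6 CPM (median 57.7) against 95.7 to 115 CPM (median 99.7) (0.79 ± 0.09, adjusted p = 1.60e-07). Xpc, which recognises bulky lesions, was lower, 58.1 to 81.3 CPM (median 69.2) against 37.9 to 51.4 CPM (median 40.5) (-0.70 ± 0.09). Rad54l and Xrcc6 were higher (0.58 ± 0.09 and 0.32 ± 0.05). Msh6, a mismatch repair gene, was higher within the band (0.13 ± 0.05), a call lost in 9 of 23 alternatives.

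The machinery of protein and energy supply lay above normal as whole lists. All 31 proteasome genes were higher, 12 beyond 1.5-fold, with a median of 0.70 and no overlap between the groups in any of the 31. Psmd7 ran at 105 to 131 CPM (median 119.7) against 179.8 to 209.8 CPM (median 207) (0.76 ± 0.05, adjusted p = 5.06e-11), and Psmc5, Psmb3 and Psmb5 differed by 0.95, 0.91 and 0.85. All 73 mitochondrial ribosomal protein genes were higher (median 0.67), among them Mrpl36, 30.4 to 34.2 CPM (median 32) against 49 to 67.2 CPM (median 60) (0.89 ± 0.06), and Mrpl12 (1.10 ± 0.09). All 29 ribosome biogenesis genes were higher (median 0.58), with Rrp9 at 0.94 ± 0.06 and Nop2 at 0.78 ± 0.06. So were all 42 nuclear genes of oxidative phosphorylation (median 0.65), with Cyc1 at 71.5 to 100.5 CPM (median 81.2) against 129 to 177 CPM (median 155) (0.90 ± 0.08), Sdhb at 0.82 ± 0.08 and Ndufb7 at 0.82 ± 0.08. The share of counts from mitochondrial genes ran from 2.00 to 3.25% in treated mutant and 2.46 to 4.01% in untreated normal libraries.

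Cytosolic ribosomal protein genes were also mostly higher, 64 of 73, yet 63 of 73 (86.3%) were at the normal level, where all autosomal genes gave 41.6% and the highest of the 4 groups by level 65.4%. Their median difference was 0.26, beside 0.16 in that highest group. Rpl3 ran at 1391 to 1718 CPM (median 1467) against 1384 to 1569 CPM (median 1535) (0.02 ± 0.05, equivalence adjusted p = 2.37e-09) and Rpl23 at 928 to 1035 CPM (median 1013) against 989.5 to 1096 CPM (median 1031) (0.06 ± 0.04). Not called within the band was Rpl27, 236 to 308 CPM (median 279.7) against 349.9 to 475 CPM (median 454) (0.70 ± 0.07, adjusted p = 1.54e-08). Ribosomal protein genes have many processed pseudogenes that share their reads.

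Chaperones were higher in 17 of 21, with a median of 0.66. The mitochondrial chaperonin pair stood out, Hspe1 at 68.5 to 105 CPM (median 76.9) against 149.5 to 253 CPM (median 223) (1.35 ± 0.12, adjusted p = 3.36e-09) and Hspd1 at 317 to 478 CPM (median 354) against 627 to 808 CPM (median 771) (0.99 ± 0.09), with the cytosolic chaperonin gene Cct3 at 0.76 ± 0.06. The number at the normal level, 2 of 21, was 4 without untreated normal replicate 4 and 6 with upper-quartile factors. Stress response genes of the unfolded protein and integrated stress pathways were higher in 21 of 28 and lower in 4 (median 0.61). Psat1 and Shmt2, of serine and one-carbon metabolism, differed by 0.83 and 0.70, and Manf, a secreted factor of endoplasmic reticulum stress, by 1.03.

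Glycolysis and hypoxia genes were at the normal level in 15 of 23 (65.2%, beside 41.6% of all genes and 65.4% of the highest group by level). Of the list, 9 were higher and 6 lower, with a median of 0.02 that changed sign under several alternatives. Ldha, lactate dehydrogenase, was the exception beyond 1.5-fold on the higher side, 481 to 722 CPM (median 644) against 909 to 1147 CPM (median 1070) (0.76 ± 0.08, adjusted p = 3.72e-08), and Egln3, an oxygen sensor, on the lower side (-1.06 ± 0.15). The kinase Hk2 and the aldolase gene Aldoa were higher by 0.47 and 0.36. Pfkl and Gpi1, of the upper pathway, were at the normal level (0.08 ± 0.06 and 0.12 ± 0.06).

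Haem and iron genes were higher in 10 of 21, lower in 2 and at the normal level in 9 (42.9%, beside 41.6% of all genes). Their median was 0.27, or 0.13 without treated mutant replicate 1 and 0.09 without the pair of libraries apart on sex-linked genes. Steap3, an iron reductase of endosomes, ran at 29.6 to 45.9 CPM (median 32) against 64.3 to 109 CPM (median 104) (1.48 ± 0.14, adjusted p = 7.38e-09). The iron carrier Slc11a2 and the haem enzyme Alas1 were higher by 0.82 and 0.70, while Fech and Ireb2 were at the normal level (-0.01 ± 0.07 and -0.03 ± 0.07). Cholesterol and fatty acid genes were higher in 14 of 25, lower in 3 and at the normal level in 14 (median 0.26). The normal-level share was 56%, beside 41.6% of all genes and 65.4% of the highest group by level. With upper-quartile factors 9 were higher and 5 lower, and without untreated normal replicate 6 the number lower was 5. Fdps, of the isoprenoid pathway, ran at 25.3 to 40.1 CPM (median 32.5) against 56.8 to 68.4 CPM (median 62.2) (0.95 ± 0.10), and Mvk, Srebf1 and Fasn differed by 0.62, 0.48 and 0.41.

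Targets and brakes of JAK2-STAT5 signalling, the pathway of the mutation, stood on both sides. Of 26 genes, 8 were higher (30.8%, against 31.8% of all) and 11 lower (42.3% against 30.9%). At the normal level were 7 (26.9% against 41.6%), and the median was -0.17. Epor, the erythropoietin receptor gene, ran at 21.9 to 26.1 CPM (median 23.6) in untreated normal and 33.8 to 60 CPM (median 49.8) in treated mutant cells (1.06 ± 0.10, adjusted p = 4.85e-09). The feedback genes Spry2 and Dusp6 were lower without overlap, 16.2 to 21.3 CPM (median 19) against 8.36 to 12 CPM (median 10.5) (-0.83 ± 0.10) and 66.8 to 84.5 CPM (median 75.5) against 43.7 to 61.6 CPM (median 47.5) (-0.59 ± 0.08). Myc and the kinase Pim3 were at the normal level (0.10 ± 0.08 and -0.04 ± 0.09, equivalence adjusted p = 7.70e-06 and 1.29e-05).

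Genes that, like JAK2, are found mutated in myeloproliferative neoplasms were at the normal level in RNA in 14 of 21. This share was 66.7%, beside 41.6% of all genes and 65.4% of the highest group by level. Of the list, 7 were higher and 8 lower (median -0.12). U2af1, a splicing factor, ran at 70.5 to 91.5 CPM (median 81.1) against 118 to 141 CPM (median 132) (0.67 ± 0.06), and Calr, a chaperone of the endoplasmic reticulum, at 741 to 1007 CPM (median 809.9) against 1161 to 1306 CPM (median 1275) (0.58 ± 0.08). Cbl, which marks receptors for degradation, was lower, 92.7 to 112 CPM (median 95.2) against 47.2 to 67.9 CPM (median 59.9) (-0.73 ± 0.07), and Srsf2 was higher within the band (0.37 ± 0.06). Nfe2, a platelet transcription factor, was at the normal level (-0.02 ± 0.05, equivalence adjusted p = 1.36e-09), and Sf3b1 was lower within the band (-0.13 ± 0.04).

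Lineage genes gave a measure of other cells that the gate could hold and of priming. Granulocyte and monocyte genes were higher in 12 of 30 (40%, against 31.8% of all), lower in 3 (10% against 30.9%) and undecided in 14. Their median was 0.62, and differences in the list ran from -1.41 to 2.33. Ly6c2, a monocyte surface antigen gene, ran at 6.56 to 29.1 CPM (median 15.6) against 69.2 to 105 CPM (median 85.6) (2.33 ± 0.40, adjusted p = 6.30e-05). Ms4a3 and Ctsg, of granulocyte progenitors, ran at 4.06 to 14.6 CPM (median 7.41) against 14.7 to 29.3 CPM (median 25.8) (1.59 ± 0.34) and 7.98 to 33.3 CPM (median 10.5) against 31 to 72 CPM (median 60.6) (1.85 ± 0.48), the latter with overlap. Ncf1, of the phagocyte oxidase, differed by 0.76 ± 0.21, and Sfpi1, the PU.1 gene, was at the normal level (-0.24 ± 0.11). The summed level of the 30 genes ran from 678 to 1600 CPM in untreated normal and 1260 to 2140 in treated mutant libraries, and Ly6g was at or near 0 in both. Itgam was detected in all 12 libraries, with the ranges given above. The part of such cells in the differences above was not tested.

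Of 26 megakaryocyte and platelet genes, 13 were higher and 4 lower (median 0.41). Thbs1, the platelet adhesion protein thrombospondin, was far above normal, 4.21 to 11.8 CPM (median 9.33) against 41 to 100.1 CPM (median 90.3) (3.09 ± 0.35, adjusted p = 3.68e-07). Mmrn1, multimerin, was below, 217 to 381 CPM (median 284) against 66.8 to 114 CPM (median 101) (-1.62 ± 0.20). Selp was lower with overlap (-0.62 ± 0.12), Nrgn was at the normal level (-0.20 ± 0.13), and Gp9 was higher within the band (0.27 ± 0.11), a call lost in 7 of 23 alternatives.

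Of 26 erythroid genes, 8 were higher (30.8%, against 31.8% of all), 8 lower (30.8% against 30.9%) and 6 undecided. Beyond 1.5-fold 4 were higher and 7 lower. The higher genes included Epor (1.06 ± 0.10, given above), and the highest difference in the list was 1.85. The lower genes included transcripts of mature red cells, the anion exchanger Slc4a1 at 17.4 to 118 CPM (median 37.8) against 0 to 3.78 CPM (median 0.364) (-5.84 ± 0.86, adjusted p = 8.67e-06), the globin gene Hbb-b2 at 26.9 to 128 CPM (median 49.3) against 7.83 to 15.5 CPM (median 9.42) (-2.55 ± 0.34) and Trim10 (-2.66 ± 0.41). Without untreated normal replicate 4, which had the highest Slc4a1 of its group, the median of the list was 0.26 and not 0.15. The summed level of the 26 genes was 1860 to 3160 CPM in untreated normal and 1720 to 2570 in treated mutant libraries.

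Early lymphoid genes were lower in 6 of 16 (37.5%, against 30.9% of all) and higher in 1 (6.25% against 31.8%), with 7 undecided. Their median of -0.50 became -0.301 without untreated normal replicate 2 and -0.305 without replicate 4. The number higher was 3 without untreated normal replicate 3, and 2 without untreated normal replicate 4 or 6 or treated mutant replicate 3 or 5. Cd27, a TNF receptor family gene, ran at 90.9 to 136 CPM (median 106) against 30 to 59 CPM (median 36.3) (-1.51 ± 0.16, adjusted p = 5.28e-08), Flt3 at 14.8 to 52.6 CPM (median 28.6) against 4.98 to 14.5 CPM (median 7.88) (-1.92 ± 0.32), Notch1 at -0.97 ± 0.12 and Bcl11a at -0.48 ± 0.07. Ikzf1, the Ikaros gene, was at the normal level (0.03 ± 0.07). Of 11 B lymphoid genes 3 were lower (27.3%, against 30.9% of all) and 7 undecided. The B lymphoid median of -1.16 became -0.61 without untreated normal replicate 5. Ighm, an immunoglobulin heavy chain gene, had 1.81 to 318 CPM (median 5.61) in untreated normal and 1.35 to 62.3 CPM (median 5.25) in treated mutant cells and a single high library in each group (-1.99 ± 1.41, adjusted p = 0.239). Cd74 was lower (-1.17 ± 0.40), a call lost without untreated normal replicate 5, and Cd79b was at the normal level (-0.21 ± 0.10).

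Of 6 T and NK genes tested, 3 were higher and 1 lower, or 2 lower without treated mutant replicate 3 or untreated normal replicate 1 or 5. Differences in the list ran from -3.58 to 2.10. In 1 gene, not named here, every treated mutant library was below every untreated normal one. Cd3e and Cd5 were at or near 0. Nkg7, a granule protein gene, ran at 33.2 to 75.5 CPM (median 42.1) against 88.6 to 143 CPM (median 118) (1.34 ± 0.15, adjusted p = 1.04e-07). Ccl5, a chemokine gene of effector lymphocytes, ran at 0.247 to 1.39 CPM (median 0.884) against 2.15 to 5.18 CPM (median 3.51) (2.10 ± 0.36), and Gzmb, a cytotoxic granule protease gene, differed by 2.02 ± 0.35, both without overlap. The summed level of the 18 markers was 40.3 to 84.7 CPM (median 51.6) in untreated normal and 102 to 156 (median 127) in treated mutant libraries. Most of this sum was Nkg7, so it is no measure of the markers as a set. Endothelial and stromal genes were lower in 6 of 12 and higher in 1, or in 2 without untreated normal replicate 2 or 3, with Emcn at 6.12 to 15.2 CPM (median 9.71) against 0.474 to 2.89 CPM (median 1.58) (-2.74 ± 0.40), Tie1 at -0.89 ± 0.13, Pdgfrb at -1.73 ± 0.22 and Eng within the band (-0.29 ± 0.09). Their summed level was 543 to 716 CPM against 392 to 515. The part of either cell type in these results was not tested.

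Immediate early genes, which are switched on within minutes by growth signals and by cell handling, were lower in 18 of 26, 13 beyond 1.5-fold, with a median of -1.48. In 7 of 26 the groups did not overlap. Ier3 ran at 24.6 to 39.7 CPM (median 33.3) in untreated normal and 8.36 to 15.1 CPM (median 11.7) in treated mutant cells (-1.52 ± 0.12, adjusted p = 3.89e-10), Dusp2 at 72.2 to 125 CPM (median 91.3) against 36.8 to 47.6 CPM (median 41.7) (-1.19 ± 0.13), and Zfp36, which destabilises inflammatory messages, at 281 to 740.0 CPM (median 614) against 75.2 to 236 CPM (median 156) (-1.90 ± 0.35). Maff was lower by a like amount (-1.58 ± 0.20). Ier5 was called at the normal level (-0.12 ± 0.21, equivalence adjusted p = 0.0495), and this call was lost in 13 of 23 alternatives.

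NF-kB and inflammatory genes were lower in 13 of 24 and higher in 6, with a median of -0.51. Feedback and target genes were lower without overlap: Icam1 at 30.8 to 49 CPM (median 39.1) against 13.1 to 21 CPM (median 16.1) (-1.25 ± 0.11, adjusted p = 2.00e-09), Nfkbiz at 17.3 to 45.7 CPM (median 30) against 4.96 to 10.7 CPM (median 8.36) (-1.89 ± 0.27) and Traf1 at -2.08 ± 0.26. Cxcl10, a chemokine that interferon induces, was higher, 1.05 to 5.81 CPM (median 1.64) against 13.8 to 31.2 CPM (median 20.2) (2.95 ± 0.39). The transcription factor subunits Nfkb1 and Rela were at the normal level (-0.02 ± 0.06 and -0.09 ± 0.08).

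**Figure D4:**
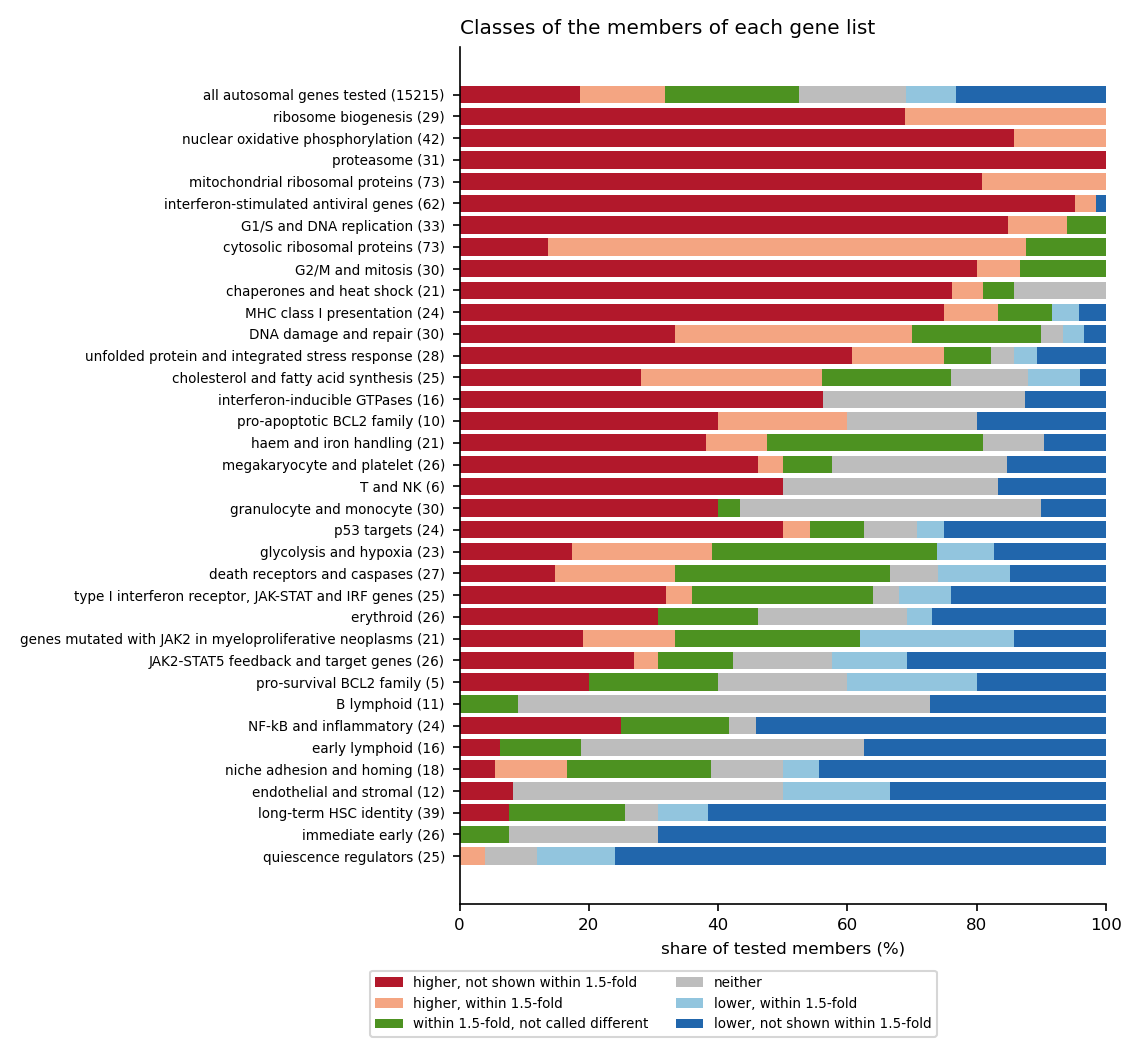
Each bar is a gene list, with the number of tested autosomal members in brackets and the share of members in each class on the x axis (%). The top bar gives all autosomal genes, and 35 lists are ordered by the share higher minus the share lower. Proteasome and antiviral lists are almost wholly in the higher classes, quiescence and immediate early lists in the lower ones, and the cytosolic ribosomal list in the higher class within 1.5-fold.

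Each value above can be set beside that of untreated mutant cells, measured against the same normal libraries. The 2 comparisons share these libraries, so the values are given side by side without a test of likeness. Untreated mutant cells differed from untreated normal cells in 12.8% of autosomal genes. These 2 groups came from the same mice by the library names, and the fit did not pair them. Within the mutant, pegIFN against vehicle changed 44.2%, and within the wild-type 57%. The median of the antiviral list was -0.17 in untreated mutant cells against 2.01 in treated ones. For quiescence genes it was -0.31 against -1.13, for identity genes -0.27 against -0.74, for proteasome genes 0.32 against 0.70 and for granulocyte and monocyte genes 0.95 against 0.62. The median differences of pegIFN against vehicle were 2.16 in mutant and 2.10 in wild-type cells for the antiviral list, and -1.33 and -1.74 for immediate early genes. They were -0.71 and -0.63 for quiescence genes, -0.48 and -0.78 for identity genes, 0.37 and 0.48 for proteasome genes, and -0.01 and 0.40 for mitotic genes. Wild-type cells thus had pegIFN medians on the same side of 0 as the mutant for these lists, apart from the mitotic one, where the mutant was close to 0. Differences between the genotypes in these medians were not tested.

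The naming rule also took genes that pegIFN moved by over 1.5-fold within the mutant and that were at the normal level when treated. These were Kif23, a mitotic kinesin gene, Myo1d, an unconventional myosin gene, Uba7 and AC128663.2. Kif23 was at 0.43 ± 0.12 in untreated and -0.17 ± 0.12 in treated mutant cells, a pegIFN difference of -0.60 ± 0.12. Myo1d was at -0.51 ± 0.11 and 0.10 ± 0.11, and AC128663.2 at -0.45 ± 0.15 and 0.17 ± 0.15, the latter losing its equivalence call in 2 of 23 alternatives.

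Other genes differed on the same side in untreated and treated mutant cells. Ctse, a cathepsin gene on chromosome 1 within 20 Mb of the congenic marker gene Ptprc, ran at 98.8 to 238 CPM (median 210.5) in untreated normal, 20.6 to 47.9 CPM (median 31.2) in untreated mutant and 24.6 to 97.5 CPM (median 34.6) in treated mutant cells, with differences of -2.64 ± 0.28 and -2.15 ± 0.28. Slc15a2, a peptide transporter gene, was at -3.06 ± 0.56 and -2.34 ± 0.54, with 1 treated library at 20.6 CPM, above the lowest normal library at 18.4. Donor strain and genotype cannot be told apart for these genes. Eya4, a phosphatase and transcription cofactor gene, was at -3.12 ± 0.81 and -4.38 ± 0.88, Cyp26b1 at -2.21 and -6.24, Pgr at -1.64 and -4.37, Tenc1 at -1.58 and -3.29, and Tinagl1 at -1.41 and -3.06. On the higher side, Lrrc32, which displays latent TGF-beta, was at 1.69 ± 0.42 and 2.86 ± 0.42. Lrg1, a secreted glycoprotein gene of neutrophils, was at 1.80 ± 0.57 and 1.52 ± 0.58, a call lost in 7 of 23 alternatives for the treated cells. By these estimates, in Ctse, Slc15a2 and Lrg1 the treated value is no further from normal than the untreated one, and in the others it is further.

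Ptprc itself was lower, 215 to 304 CPM (median 243) against 117 to 199.8 CPM (median 145) (-0.76 ± 0.11, adjusted p = 1.36e-06), and the gene carries the CD45.1 and CD45.2 alleles by which the donors were sorted. Among the 186 genes tested within 20 Mb of Ptprc, 28.5% were higher, 36% lower and 38.7% at the normal level, close to the shares of all autosomal genes. Cdkn1a differed by 1.42 ± 0.32 with pegIFN in the mutant and by 0.24 ± 0.32 in the wild-type. The adjusted p of the difference between these was 0.523, in the fit without pairing by mouse.

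**Figure D5:**
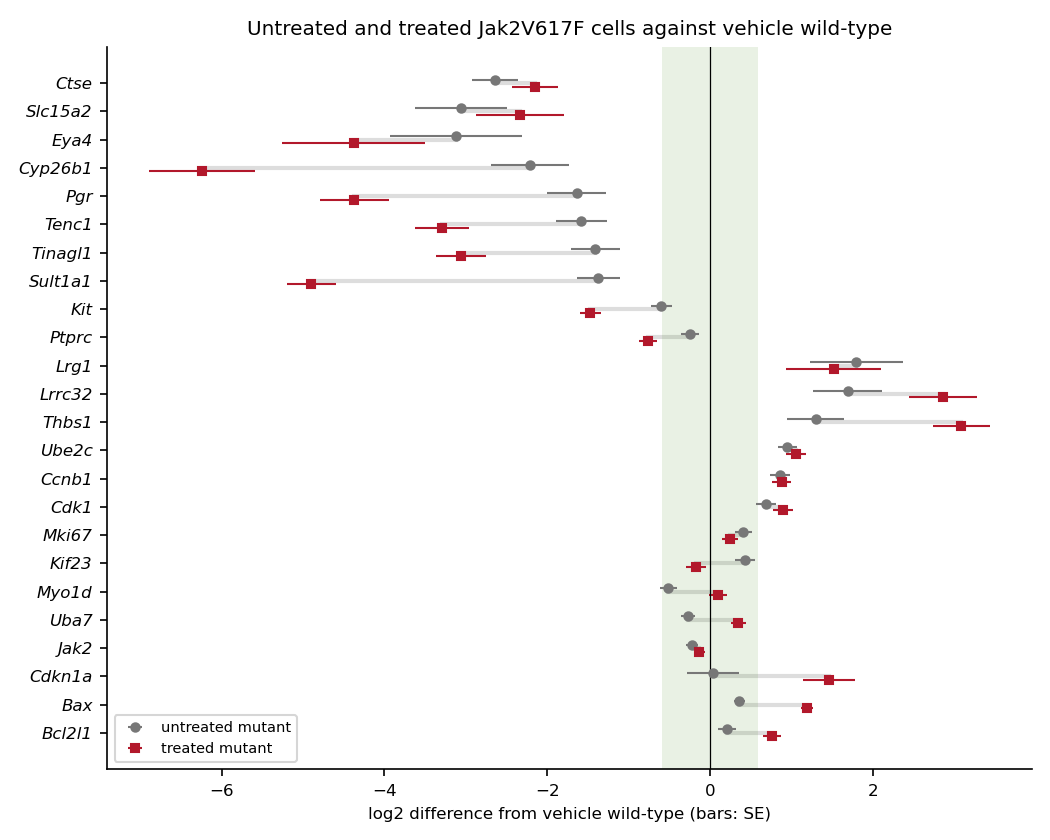
Log2 difference from vehicle wild-type cells (x axis) for 24 genes in untreated (grey circles) and treated (red squares) Jak2V617F cells, with SE bars, and the band of 1.5-fold shaded. Both values use the same 6 vehicle wild-type libraries. Ctse and Slc15a2 lie below -2 in both, Cyp26b1, Pgr and Sult1a1 lie further left when treated, and Kif23 and Myo1d lie inside the band.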

How the data were processed

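Bulk RNA of sorted LT-HSCs was sequenced as 24 libraries, 6 in each of 4 groups. The authors deposited expected counts per gene (RSEM 1.2.30 estimates, with STAR 2.5.2a, cutadapt 1.11 and GRCm38 also named, per the submitters' processing notes), 1 column per library, in which 16.8% of values are not whole because shared reads were divided. The annotation release is not given in the sources used here. The counts were rounded, and the filterByExpr step of edgeR (minimum count 10) kept 15879 of 38215 genes, with 99.95% of counts. Libraries were scaled by TMM, and group means were fitted over all 24 libraries with edgeR 4.0.16 (quasi-likelihood, R 4.3.3; common biological variation 18.6%). P-values were adjusted over all genes tested, and autosomal genes are reported. Equivalence used a pair of one-sided tests of each difference and its SE against 1.5-fold, and differences beyond 1.5-fold used glmTreat. P-values measure the spread between mice of a group, and the number of libraries and their depth limit the precision. By the library names the 24 libraries came from 12 mice, each giving a wild-type and a mutant library. The edgeR fit did not pair them, while the limma model estimated a correlation of 0.423 within a mouse. SEs and p-values of mutant against wild-type cells under the same treatment, and of the difference between pegIFN effects, therefore ignore this pairing. The procedure was tested on simulated data.

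The members and the gene lists were chosen with earlier results of these data known, so list counts are descriptions and stand beside those of all genes. Counts of members without overlap have no such share beside them. Named genes are those with a mean log2 CPM of at least 1 that had the largest differences, that had the smallest p or equivalence p in their list, or that the untreated or pegIFN contrast of the mutant picked out, with a set of apoptosis, interferon and gate genes. A few of them are not reported here. Cell type markers (Procr, Fgd5, Hlf, Mecom, Cd34 and the depletion antigens) were a set of their own. Alternatives were RLE and upper-quartile factors, other filters, the 12 libraries alone, leaving out libraries, a replicate block, limma 3.58.1 with the mouse as a random block, DESeq2 1.42.0, other bands and leaving out genes near Ptprc. Calls of named genes were followed over 23 of them. Promoter windows are RefSeq's, matched by symbol or ID for 10509 of 15164 symbols, and the other genes were left out of those shares.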

Additional observations from a re-analysis of the deposited data

Results flagged for a closer look

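For each gene named in the report, and in each of the 2 groups of 6 libraries, it was asked whether the highest or lowest library stood apart from the other 5 by more than Dixon's 95% critical value. Of 380 groups of values over 190 genes, 39 held such a library, where chance gives about 1 in 20. Treated mutant replicate 3 accounted for 14 of them, and the counts of genes without it stand in the report.

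AC128663.2 in treated mutant replicate 3 stood at 9.85 CPM, with the other 5 between 6.34 and 7.07, on the high side. Cd74 was at 164 CPM while the rest ran from 33.7 to 54.6. Cd93 had 168 CPM, set against 121 to 138 in the others. Esam stood at 58.8 CPM, with the other 5 between 28.1 and 38.3. Robo4 was at 12.1 CPM while the rest ran from 2.27 to 4.77. Slc26a11 had 1.62 CPM, set against 0.396 to 0.826 in the others. Smad3 stood at 93.4 CPM, with the other 5 between 69 and 74.3. Traf1 was at 3.54 CPM while the rest ran from 1.12 to 2.02. Ccne1 in treated mutant replicate 3 stood at 21.2 CPM, with the other 5 between 33.5 and 38.6, on the low side. Manf was at 149 CPM while the rest ran from 178 to 192. Rpl27 had 349.9 CPM, set against 443 to 475 in the others. Rpl3 stood at 1384 CPM, with the other 5 between 1524 and 1569. Sdhb was at 91.7 CPM while the rest ran from 105 to 109. Srsf2 had 665 CPM, set against 814 to 861 in the others.

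Ctse in treated mutant replicate 1 stood at 97.5 CPM, with the other 5 between 24.6 and 39.1, on the high side. Eya4 was at 1.78 CPM while the rest ran from 0.102 to 0.434. Lrg1 had 6.49 CPM, set against 2.11 to 3.69 in the others. Matn4 stood at 1.05 CPM, with the other 5 between 0 and 0.239.

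Ighm in treated mutant replicate 2 stood at 62.3 CPM, with the other 5 between 1.35 and 9.51, on the high side. Slc4a1 was at 3.78 CPM while the rest ran from 0 to 0.47. Trim10 had 1.5 CPM, set against 0.366 to 0.643 in the others. Bcl11a in treated mutant replicate 2 stood at 162 CPM, with the other 5 between 181 and 186, on the low side.

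Cdkn1a in treated mutant replicate 5 stood at 50.6 CPM, with the other 5 between 17.9 and 30.1, on the high side.

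Slc15a2 in treated mutant replicate 6 stood at 20.6 CPM, with the other 5 between 0.716 and 5.55, on the high side.

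Ireb2 in untreated normal replicate 1 stood at 88.5 CPM, with the other 5 between 103 and 112, on the low side.

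Slfn4 in untreated normal replicate 2 stood at 8.61 CPM, with the other 5 between 0.283 and 2.53, on the high side. Tsc1 in untreated normal replicate 2 stood at 70.7 CPM, with the other 5 between 90.1 and 98.7, on the low side.

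Cd48 in untreated normal replicate 3 stood at 12.8 CPM, with the other 5 between 4.73 and 7.72, on the high side. Nkg7 was at 75.5 CPM while the rest ran from 33.2 to 45.8. Aldoa in untreated normal replicate 3 stood at 299.5 CPM, with the other 5 between 339 and 362, on the low side.

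Cbl in untreated normal replicate 4 stood at 112 CPM, with the other 5 between 92.7 and 97.8, on the high side. Slc4a1 was at 118 CPM while the rest ran from 17.4 to 53.2. Trim10 had 9.29 CPM, set against 2.06 to 4.66 in the others.

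Ighm in untreated normal replicate 5 stood at 318 CPM, with the other 5 between 1.81 and 11.6, on the high side. Pim3 was at 55.5 CPM while the rest ran from 42.3 to 46. Srebf1 had 142 CPM, set against 119.8 to 128 in the others.

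Eya4 in untreated normal replicate 6 stood at 39.6 CPM, with the other 5 between 2.29 and 8.52, on the high side. Pdgfrb was at 33.5 CPM while the rest ran from 14.9 to 20.6. Thbs1 in untreated normal replicate 6 stood at 4.21 CPM, with the other 5 between 9.07 and 11.8, on the low side.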

How the results depend on the processing

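The counts of 4841 genes higher, 4702 lower and 6332 at the normal level stayed within 1.5 times under each alternative that left the question as it was. They were 4689, 4860 and 6390 with RLE factors, 3935, 5577 and 6461 with upper-quartile factors, which moved the median of all autosomal genes to -0.1, and 4761, 4917 and 6446 with DESeq2. They were 4475, 4310 and 6033 with only the 12 libraries compared, 4864, 4628 and 6320 with limma-voom and the mouse as a random block, and 4940, 4760 and 5949 with no filter on low counts. Leaving out single libraries gave 4576 to 4983 higher, 4447 to 4749 lower and 5901 to 6563 at the normal level. Without genes within 20 Mb of Ptprc 4788 were higher and 4635 lower.

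Changing the question moved the counts. Tested against more than 1.5-fold, 745 genes were higher and 1563 lower. With a band of 0.322 on the log2 scale, in place of 0.585, 1879 genes were at the normal level, and with a band of 2-fold 10557. A wider band admits more genes by construction, so the number at the normal level has a meaning only beside its band.

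The replicate numbers do not pair the libraries of these groups, which come from different mice. Deviations of same-numbered libraries correlated at -0.212 to 0.0122, and no library correlated best with its own number. With the replicate block 4960 genes were higher, 4753 lower and 6426 at the normal level. In that fit 8 and not 5 MHC class I genes were at the normal level, and the B lymphoid median was -0.587.

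Of 209 calls on named genes, 195 were kept in every alternative run on them, 14 were lost at least once and 0 reversed. List counts and medians moved in 137 of 3220 combinations. Depth limits the weakly expressed genes: below a mean log2 CPM of 1.57, 54.1% were undecided. In simulated data for this comparison (15694 genes in the fit), 81.8% of genes changed by a log2 of 0.8 and 97% of those changed by 2 were called, and 72.4% of unchanged genes were called at the normal level. The simulation left 15294 genes unchanged, whereas 62.7% of autosomal genes were called different in the data. Adjusted p-values depend on that share, so these rates check the procedure and do not carry over to the data.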

Other observations

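No chromosome carried the differences by itself. Over the 19 autosomes the share of genes called higher ran from 27.9% on chromosome 13 to 34.9% on chromosome 19, and the share called lower from 27.2% on chromosome 8 to 36.5% on chromosome 3. The share at the normal level ran from 37.2% on chromosome 6 to 46.5% on chromosome 12. Of 323 antisense genes, 35% were lower, 9.91% higher and 49.2% undecided. The counting is not stated to use strand, so reads of an antisense gene and of its partner cannot be told apart.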
